A study of Drosophila melanogaster with 6 samples.

Results

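The genes described are those of the mitochondrial ribosomal proteins, taken as every symbol of the deposited count table that begins with mRpL or mRpS followed by a digit. The rule uses the symbol alone, and 73 of 16666 symbols met it, 47 named for the large subunit (mRpL) and 26 for the small subunit (mRpS). RNA was measured in astrocytes sorted from adult brains (4 libraries) and from larval brains at the third instar (L3, 2 libraries) of Drosophila melanogaster. Both stages carried UAS-mCD8::GFP, Alrm-Gal4 and UAS-RedStinger. The GFP marks membranes, the driver is named for the astrocyte gene alrm, and the RedStinger protein supplies the red signal on which cells were selected. No sex or adult age was used here. Each library came from a pool of 1000 red cells, sorted after collagenase and dispase at 29 °C for 30 min in adult brains and 15 min in L3 brains, so enzyme time and stage cannot be told apart. The labels do not say that the pools of a stage came from separate sets of animals, so p-values measure only the spread between these libraries.

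The mitochondrial ribosome sits in the mitochondrial matrix and translates the few proteins still encoded by mitochondrial DNA, all of them membrane subunits of the respiratory chain and ATP synthase. Its protein subunits are encoded in the nucleus, made in the cytoplasm and imported, then assembled on ribosomal RNA transcribed inside the mitochondrion. Many are related to bacterial ribosomal proteins, and others occur only in mitochondrial ribosomes. Astrocytes are glia that take up transmitter at synapses and support neurons metabolically.

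Library totals were 745129 to 1287871 counts in adult libraries and 1923097 and 2641671 counts in L3 libraries, so L3 values carry less counting error. In adult libraries 1 to 4, 66, 62, 67 and 72 of the 73 members had at least 1 count, and both L3 libraries held counts of all 73. The median member had 12 to 18 counts in an adult library, against 57 and 63 counts in an L3 library. A count of 0 allows up to 2.33 to 4.03 CPM (counts scaled to the library total in the usual unit) in an adult library and up to 1.14 and 1.56 CPM in an L3 library, by a floor of 3 counts that covers counting error only. Astrocyte markers (alrm, Gat, Eaat1, Gs2 and e) summed to 8819 to 13509 CPM in adult libraries and to 3250 and 5132 CPM in L3 libraries, and 4 of the 5 rose. Hemocyte markers (Hml, NimC1 and He) summed to 847 to 1527 CPM in adult libraries and to 27.6 and 43.2 CPM in L3 libraries, nearly all of it Hml. Neuron markers (elav, nSyb, Syt1, brp and Gad1) summed to 181 to 359 CPM in adult libraries and to 77.6 and 143 CPM in L3 libraries, with 2 of 5 higher. Cycling or progenitor markers (CycB, stg, ase and dpn) summed to 0 to 6.21 CPM in adult libraries and to 70.2 and 89.3 CPM in L3 libraries. Of those 4 genes, CycB, stg and ase had no count in any adult library. Fat body markers (Lsp1beta, Yp2 and Lsp2) summed to 13.98 to 55.0 CPM in adult libraries and 20.8 and 38.5 CPM in L3 libraries. Of the 2 tested, 1 was higher and 1 lower in adults, so the sum hides opposite changes. Muscle markers (Mhc, Mlc2 and up) summed to 2.19 to 50.9 CPM in adult libraries and 2.27 and 7.80 CPM in L3 libraries. The part of other cells in the member values was not tested, and in pooled cells fewer cells of a type and less RNA per cell cannot be told apart.

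Most members had a lower level in adult than in L3 astrocytes, but the differences of most single members did not pass the test. The mean CPM was lower in adult libraries for 55 of the 73 members and higher for 18. Of the 71 members with enough counts to be tested, 12 fell in adults and 1, mRpS17, rose (edgeR quasi-likelihood test, Benjamini-Hochberg adjusted p below 0.05 over all 9082 tested genes). These are 16.9% and 1.41% of the tested members, and over all tested genes 13.1% were lower and 9.65% higher (1188 and 876 genes). With DESeq2, 6 members were lower and mRpS17 higher, and the split over all genes was 7.5% lower and 8.45% higher (681 and 767 genes). The earlier quasi-likelihood method of edgeR gave 4 members lower and mRpS17 higher, against 6.14% and 5.74% of all genes. Both of these fits tested 71 members, so in both the share lower was near that of all genes. When each group of genes that share counts entered once, 11 members were lower and mRpS17 higher, against 11.8% and 8.96% of all genes. The 12 members that fell were mRpL27, mRpL9, mRpS22, mRpL36, mRpL40, mRpL20, mRpL37, mRpL30, mRpL12, mRpS23, mRpL15 and mRpS33. All 13 called members differed at least 2-fold between stage means.

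The log2 fold change (adult minus L3) was below 0 in 55 of the 71 tested members, or 77.5%, against 54% of all tested genes. Its median over the tested members was -0.75, with quartiles of -1.47 and -0.08, and the median over all tested genes was -0.14. The 58 members that were not called had log2 fold changes between -2.26 (mRpS18B) and 1.196 (mRpS5), negative in 43 and positive in 15. Without an adjustment for the number of genes, 21 members had p below 0.05, 19 of them lower in adults and 2 higher. These are 26.8% and 2.82% of the tested members, against 19.9% and 14.7% of all tested genes. Every adult library lay below both L3 libraries in 23 tested members, or 32.4%, while 22.9% of all tested genes had that order. Every adult library lay above both L3 libraries in 2 members, or 2.82%, while 14.8% of all tested genes did. The count of members that fell depended on single libraries and on the method: it was 3 without L3 library 1, where the remaining L3 library was assumed to vary like the adult ones, and it was 7 with limma-voom.

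**Figure D1:**
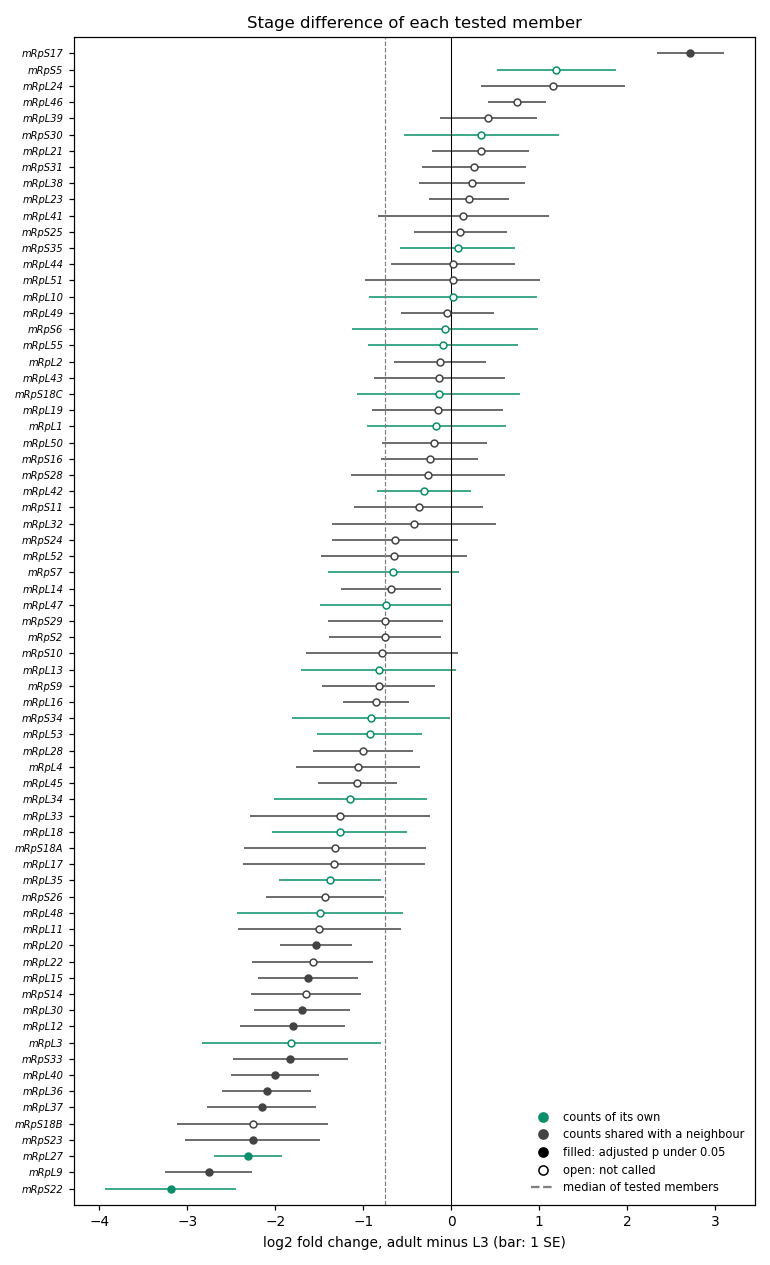
Log2 fold change (adult minus L3, x axis) of each of the 71 tested members, sorted by value, with bars of 1 SE. Colour separates members with counts of their own from members that share counts with a neighbour, and filled points are those past the test. Most points lie left of 0, and mRpS17 is the 1 called member right of it.

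**Figure D2:**
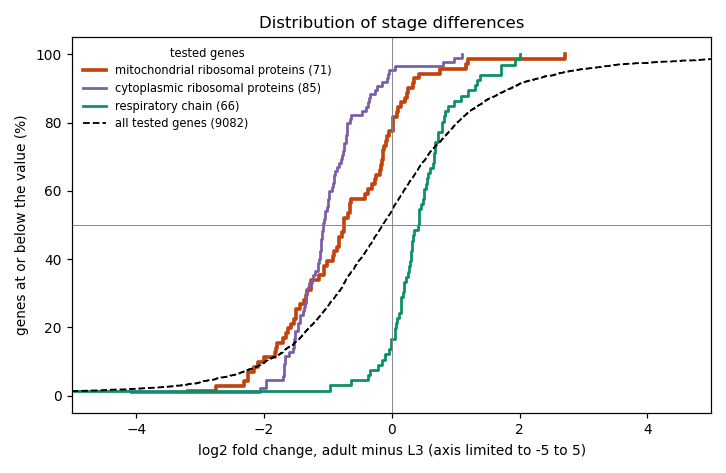
Cumulative share of tested genes (y axis, %) at or below each log2 fold change (x axis, adult minus L3) for the members and for comparison lists. The curve of the members crosses 50% at -0.75, between the cytoplasmic ribosomal proteins at -1.08 and all tested genes at -0.14.

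The value of most members could not be told from that of a neighbouring gene. Members and genes at most 10 table entries away were taken to share counts where both had at least 30 counts and their counts differed by under 5%. Here and below, this difference is the absolute difference summed over the libraries, as a percentage of the summed counts of both genes. It is therefore smaller than the difference relative to the counts of 1 gene alone. By this measure 50 of 72 members with at least 30 counts shared them with a neighbour, or 69.4%, against 5789 of 9900 genes, or 58.5%, in the whole table. In 28 of the 50 the counts were identical to a neighbour's in every library. A further 22 members differed by more than 5% from every such neighbour and are called members with counts of their own, and mRpS21 fell below the minimum. In 14 of the 22 the nearest neighbour's counts still differed by under 30%, with 16.9% the smallest difference, so partial sharing was not tested for them. For mRpS22 the nearest was mino, at 27.1%, and for mRpL27 it was MFS18, at 45.6%. In the annotation, the 3′ ends of 37 of the 50 faced their closest partner on the opposite strand, or 74%, against 49.7% of all 5789 sharing genes. Whether strand was used in counting is not given in the sources used here, so reads of such a pair cannot be assigned to either gene. Of the 13 called members, mRpL27 and mRpS22 had counts of their own and 11 shared them. Of all genes with counts of their own, 12.3% were lower and 10.2% higher by edgeR. Among the 21 tested members of that kind, 2 were lower, or 9.52%, and 0 higher, so the share lower was not above this background. At an unadjusted p below 0.05, 3 were lower and 0 higher. DESeq2 and limma-voom also called 2 lower and 0 higher, and the earlier quasi-likelihood method 1 lower and 0 higher. The median log2 fold change was -0.74 in these 21 members and -0.75 in the 50 that shared counts.

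mRpL27 had the largest counts among the members with counts of their own, and it fell in adults. Its bacterial counterpart reaches with its N terminus into the peptidyl transferase centre, where peptide bonds are made. mRpL27 had 61.8, 75.2, 128 and 113 CPM in adult libraries 1 to 4, against 591 and 291 CPM in L3 libraries 1 and 2. The stages did not overlap, and the L3 libraries were themselves far apart. The mean was 94.4 ± 31.1 CPM in adults (SD, n = 4) and 441 ± 212 CPM in L3 (SD, n = 2), a level 4.67 times higher in L3. The log2 fold change of mRpL27 was -2.31 ± 0.39 (SE; edgeR adjusted p = 0.000177), and -1.48 ± 0.45 without L3 library 1 (edgeR adjusted p = 0.0427). mRpL27 was also lower at the 0.05 threshold in each of the other 18 fits run.

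mRpS22, a small subunit protein found only in mitochondrial ribosomes, was the other called member with counts of its own. It had 5.84, 9.39, 0 and 4.66 CPM in adult libraries 1 to 4, against 47.7 and 38.0 CPM in L3 libraries 1 and 2. All adult libraries lay far below both L3 libraries, and adult library 3 held no count, which allows up to 3.29 CPM there. mRpS22 averaged 4.97 ± 3.88 CPM in adults (SD, n = 4) and 42.8 ± 6.89 CPM in L3 (SD, n = 2), with a log2 fold change of -3.19 ± 0.74 (SE; edgeR adjusted p = 0.00268). Without L3 library 1 its adjusted p was 0.0580.

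The other members with counts of their own did not pass the test. mRpL3, whose counterpart lies under the peptidyl transferase centre, had 0.835, 0, 17.5 and 1.55 CPM in adult libraries 1 to 4 and 17.0 and 14.6 CPM in L3 libraries 1 and 2. Adult library 3 alone reached the L3 level, and the log2 fold change was -1.82 ± 1.02 (SE; edgeR adjusted p = 0.211). Without adult library 3 mRpL3 was called lower (edgeR adjusted p = 0.0350). That fit drops the library that went against a fall, so its call adds no support. mRpL35, a large subunit protein with a bacterial counterpart, had 14.2, 29.5, 19.7 and 11.6 CPM in adult libraries and 50.7 and 36.4 CPM in L3 libraries (log2 fold change -1.38 ± 0.58 SE, edgeR adjusted p = 0.0939). Its stages did not overlap. mRpL18 and mRpL34, also of the large subunit, likewise had every adult library below both L3 libraries, with adjusted p of 0.253 and 0.378 by edgeR. That order was found in 5 of the 21 tested members with counts of their own, or 23.8%. This is near the 22.9% of all tested genes, while 36% of the members that share counts had it.

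mRpL10, which holds the flexible stalk where translation factors bind, had a log2 fold change of 0.02 ± 0.95 (SE; edgeR adjusted p = 0.993). It averaged 8.38 ± 7.15 CPM in adults (SD, n = 4) and 7.47 ± 1.74 CPM in L3 (SD, n = 2). mRpS5, whose bacterial counterpart lies in the body of the small subunit, had 37.6, 32.2, 18.6 and 78.4 CPM in adult libraries and 4.16 and 38.0 CPM in L3 libraries. The L3 libraries of mRpS5 differed widely, 1 below every adult library and 1 among them, and the log2 fold change was 1.196 ± 0.68 (SE; edgeR adjusted p = 0.222). The log2 fold change of mRpS5 was 3.20 without L3 library 2 and 0.36 without L3 library 1. Each of these fits leaves 1 L3 library, so neither shows a rise. mRpS30, which current structures place in the large subunit despite its name, averaged 13.4 ± 13.4 CPM in adults (SD, n = 4) and 10.4 ± 1.41 CPM in L3 (SD, n = 2).

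mRpS17 was the only member called higher in adults. Its bacterial counterpart S17 binds the ribosomal RNA of the small subunit body early in assembly. mRpS17 had 435, 526, 370 and 358 CPM in adult libraries 1 to 4, against 64.4 and 59.3 CPM in L3 libraries 1 and 2. All 4 adult libraries lay far above both L3 libraries. The mean was 422 ± 77.0 CPM in adults (SD, n = 4) and 61.8 ± 3.59 CPM in L3 (SD, n = 2), 6.83 times higher in adults, with a log2 fold change of 2.72 ± 0.38 (SE; edgeR adjusted p = 2.15e-05). mRpS17 was also higher in each of the other 18 fits run. Its counts differed from those of the neighbouring gene CG3328 by 0.025%, so the rise cannot be assigned to mRpS17 rather than to CG3328.

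**Figure D3:**
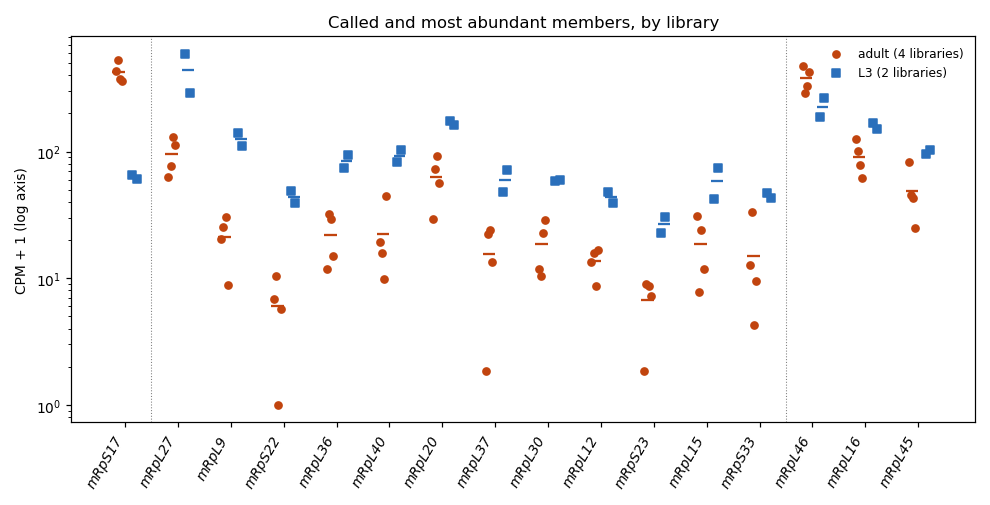
CPM + 1 (log axis) of the 13 called and the most abundant other members in each adult library (circles) and L3 library (squares). mRpS17 and mRpL46 have every adult point above both L3 points, and the other members shown have every adult point below both.

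Of the large subunit proteins with bacterial counterparts, 7 fell, and all of these but mRpL27 shared their counts with a neighbour. mRpL9, a long protein that reaches outward from the bacterial large subunit, had 19.2, 24.2, 29.6 and 7.76 CPM in adult libraries 1 to 4, against 138 and 110 CPM in L3 libraries 1 and 2. The stages were far apart, with the highest adult library well under the lower L3 library. mRpL9 had a log2 fold change of -2.75 ± 0.49 (SE; edgeR adjusted p = 0.000309), and its counts differed from those of FK506-bp1, a prolyl isomerase gene, by 0.0765%. mRpL36, a small zinc-binding protein in bacteria, had 10.9, 30.9, 28.5 and 13.98 CPM in adult libraries and 73.1 and 93.1 CPM in L3 libraries. The adult values lay in a band below the L3 values (log2 fold change -2.10 ± 0.51 SE, edgeR adjusted p = 0.00475), and the counts were shared with Uba2, which encodes a SUMO-activating enzyme subunit, and CG7550. mRpL9 and mRpL36 were also called lower whichever library was left out.

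mRpL20, whose counterpart is needed early in large subunit assembly in bacteria, had 28.4, 71.1, 91.0 and 55.9 CPM in adult libraries 1 to 4, against 173 and 162 CPM in L3 libraries 1 and 2. The L3 libraries lay close together and above every adult library. For mRpL20 the log2 fold change was -1.53 ± 0.41 (SE; edgeR adjusted p = 0.00928), and without L3 library 1 the adjusted p was 0.138. The counts of mRpL20 were shared with CG11267. mRpL30, another protein with a bacterial counterpart, had 10.9, 9.39, 21.9 and 27.95 CPM in adult libraries and 57.2 and 58.2 CPM in L3 libraries, all of them identical to those of Torsin. Both L3 libraries stood above the adult ones, with a log2 fold change of -1.70 ± 0.55 (SE; edgeR adjusted p = 0.0285). Its call was lost without adult library 1 (adjusted p = 0.0933), adult library 2 (0.0683), L3 library 1 (0.200) or L3 library 2 (0.0655).

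mRpL12 forms the stalk itself and recruits elongation factors to the ribosome. It had 12.5, 14.8, 7.67 and 15.5 CPM in adult libraries 1 to 4, against 47.3 and 38.5 CPM in L3 libraries 1 and 2. The adult libraries were close together and below both L3 libraries, with a log2 fold change of -1.80 ± 0.60 (SE; edgeR adjusted p = 0.0333). Its counts differed from those of GNBP3, a glucan recognition protein gene, by 2.86% of the summed counts of both genes. The call was lost without adult library 1 (adjusted p = 0.0793), adult library 2 (0.0555), adult library 3 (0.0731), adult library 4 (0.0615) or L3 library 1 (0.291). By the measure used for neighbours, the counts of mRpL12 also differed by 0.199% from those of CG7465 and CG11350, which stand elsewhere in the table. Of the 36 members with at least 200 counts that were searched for such distant likeness, only mRpL12 had a match under a chi-square of 0.3. That limit is stricter than the 5% used for neighbours, and other members differed by under 5% from a distant gene. The counts of mRpS22 differed by 2.79% from those of a small nucleolar RNA entry (chi-square 2.64), and those of mRpL9 by 4.21% from CaBP1 (chi-square 8.23). mRpL11, at the base of the stalk, averaged 5.02 ± 6.35 CPM in adults (SD, n = 4) and 15.3 ± 12.1 CPM in L3 (SD, n = 2), and its stages overlapped.

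mRpL15, also with a bacterial counterpart, had 30.1, 6.71, 23.0 and 10.9 CPM in adult libraries 1 to 4, against 40.9 and 73.3 CPM in L3 libraries 1 and 2. The gap between the highest adult library and the lower L3 library was smaller than the spread within either stage. mRpL15 had a log2 fold change of -1.62 ± 0.57 (SE; edgeR adjusted p = 0.0429), and the counts were identical to those of Psn, the presenilin gene. The call was lost without adult library 2 (adjusted p = 0.0986), adult library 3 (0.0510), adult library 4 (0.130), L3 library 1 (0.0988) or L3 library 2 (0.229).

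Of the 27 tested members found only in mitochondrial ribosomes, 5 fell, or 18.5%, mRpS22 among them. Of the 44 with bacterial counterparts 7 fell, or 15.9%, and 1 rose, or 2.27%. Over all tested genes 13.1% were lower and 9.65% higher. The median log2 fold change was -0.19 in the mitochondria-only members and -0.82 in those with counterparts. Values were negative in 17 of 27 and 38 of 44, against 54% of all tested genes, and the difference between these classes was not tested. Without L3 library 1, 0 mitochondria-only members and 3 with counterparts were called lower. mRpL40, of the central protuberance that contacts the small subunit, had 18.4, 14.8, 8.77 and 43.5 CPM in adult libraries 1 to 4, against 81.0 and 101 CPM in L3 libraries 1 and 2. Adult library 4 stood above the other adult libraries but below both L3 libraries. The log2 fold change of mRpL40 was -2.001 ± 0.50 (SE; edgeR adjusted p = 0.00619, and 0.0535 without L3 library 1), with counts identical to those of mgr, a prefoldin subunit gene. Without adult library 4 the log2 fold change was -2.67 (edgeR adjusted p = 0.00347).

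mRpL37, of the mitochondria-only proteins of the large subunit, had 0.835, 21.5, 23.0 and 12.4 CPM in adult libraries 1 to 4, against 46.9 and 70.7 CPM in L3 libraries 1 and 2. Adult library 1 held a single count, and all adult libraries lay below both L3 libraries. It had a log2 fold change of -2.15 ± 0.62 (SE; edgeR adjusted p = 0.0149), with counts identical to those of CG42633. The call was lost without adult library 1 (adjusted p = 0.0611), L3 library 1 (0.0601) or L3 library 2 (0.0779).

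mRpS23 and mRpS33, small subunit proteins of the mitochondria-only kind, were the last of the called members. mRpS23 had 0.835, 8.05, 7.67 and 6.21 CPM in adult libraries 1 to 4, against 21.6 and 29.6 CPM in L3 libraries 1 and 2. mRpS23 had a log2 fold change of -2.26 ± 0.77 (SE; edgeR adjusted p = 0.0344), its counts were identical to those of RpII33, an RNA polymerase II subunit gene, and the call was lost whichever library was left out, with adjusted p of 0.0505 to 0.133. mRpS23 was thus a call that needed all 6 libraries. mRpS33 had 11.7, 32.2, 3.29 and 8.54 CPM in adult libraries and 45.8 and 41.6 CPM in L3 libraries, identical to those of ema, an endosomal protein gene. Adult library 2 came nearest to the L3 level, and the log2 fold change was -1.83 ± 0.65 (SE; edgeR adjusted p = 0.0468). Without adult library 1 (adjusted p = 0.104), adult library 3 (0.102), adult library 4 (0.130), L3 library 1 (0.286) or L3 library 2 (0.0771), mRpS33 was not called. Without adult library 2 its log2 fold change was -2.43 (edgeR adjusted p = 0.0210).

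Several abundant members did not pass the test. mRpL46, of the central protuberance, had 469, 289, 331 and 424 CPM in adult libraries 1 to 4, against 187 and 264 CPM in L3 libraries 1 and 2. All adult libraries lay above both L3 libraries, adult library 2 by little, and the log2 fold change was 0.75 ± 0.33 (SE; edgeR adjusted p = 0.107). Its counts were shared with alpha-Spec, the alpha spectrin gene, CG13933 and CG2021. mRpL16, whose bacterial counterpart lines the transfer RNA sites of the large subunit, had 124, 99.3, 76.7 and 60.6 CPM in adult libraries and 166 and 149 CPM in L3 libraries. Its stages did not overlap (log2 fold change -0.85 ± 0.38 SE, edgeR adjusted p = 0.110), and its counts differed by 0.0912% from those of arm, the Drosophila beta-catenin gene. mRpL45, which helps hold the ribosome to the inner membrane, had 81.0, 44.3, 41.6 and 24.1 CPM in adult libraries and 95.4 and 101 CPM in L3 libraries, identical to those of loco. Its log2 fold change was -1.07 ± 0.45 (SE; edgeR adjusted p = 0.0900, and 0.0408 without adult library 1). Adult library 1 lay nearest to the L3 level, so the call without it adds no support. The neighbour loco encodes a regulator of G protein signalling known from fly glia.

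Other members around the same structures were not called. At the peptidyl transferase centre or in its surroundings, mRpL2 averaged 31.7 ± 5.47 CPM in adults (SD, n = 4) and 33.9 ± 4.54 CPM in L3 (SD, n = 2). mRpL4 averaged 11.8 ± 4.67 CPM in adults and 24.02 ± 13.1 CPM in L3, and the stages of both overlapped. Near the exit of the nascent chain, mRpL23 averaged 55.5 ± 17.1 CPM in adults and 48.6 ± 7.73 CPM in L3, and mRpL24 20.6 ± 14.7 CPM in adults and 8.30 ± 2.18 CPM in L3. The stages of both overlapped. mRpL22, at the same exit, had 12.5, 9.39, 20.8 and 2.33 CPM in adult libraries and 30.7 and 31.7 CPM in L3 libraries, with no overlap (log2 fold change -1.57 ± 0.69 SE, edgeR adjusted p = 0.104). Of the others there, mRpL17 averaged 3.89 ± 3.99 CPM in adults and 8.89 ± 6.69 CPM in L3, and mRpL47 16.0 ± 16.1 CPM in adults and 23.7 ± 1.86 CPM in L3, both with overlapping stages. With mRpL45, 4 of these 6 exit members had a negative log2 fold change. In the head of the small subunit, mRpS14 had 10.9, 20.1, 14.2 and 11.6 CPM in adult libraries, against 52.6 and 27.6 CPM in L3 libraries. The L3 libraries of mRpS14 differed widely, and the log2 fold change was -1.65 ± 0.63 (SE; edgeR adjusted p = 0.0608). The log2 fold change of mRpS14 was -2.125 without L3 library 2 and -0.87 without L3 library 1. Each of these fits leaves 1 L3 library. Of the mRpS18 paralogues, which are all related to 1 bacterial protein, mRpS18B had 1.67, 4.03, 3.29 and 3.88 CPM in adult libraries and 15.9 and 13.5 CPM in L3 libraries. Its stages did not overlap, with a log2 fold change of -2.26 ± 0.86 (SE; edgeR adjusted p = 0.0593), and mRpS18C averaged 12.7 ± 15.4 CPM in adults and 12.8 ± 3.17 CPM in L3 (log2 fold change -0.14, edgeR adjusted p = 0.936). mRpS29, a GTP-binding protein, averaged 18.7 ± 17.98 CPM in adults and 35.0 ± 0.894 CPM in L3 (log2 fold change -0.75, edgeR adjusted p = 0.452).

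The 2 members too low to be tested, mRpL54 and mRpS21, had few counts in adults. mRpL54 had 0, 1, 2 and 5 counts in adult libraries 1 to 4 and 13 and 28 counts in L3 libraries 1 and 2. mRpS21 had 1, 0, 1 and 2 counts in adult libraries and 13 and 11 counts in L3 libraries. The adult libraries were also the shallower ones, and 23 members had no count in at least 1 adult library, among them mRpL51 and mRpL33 in 2 adult libraries each.

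**Figure D4:**
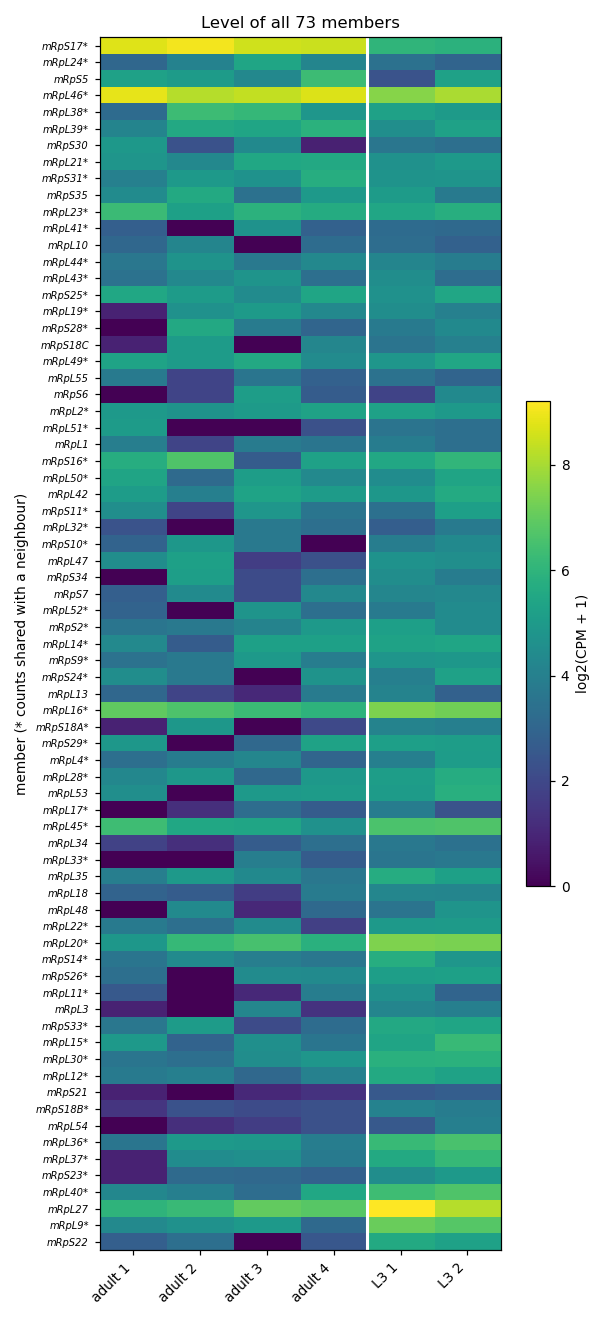
Level of all 73 members as log2(CPM + 1), adult libraries at left and L3 libraries at right; an asterisk marks members whose counts are shared with a neighbour. Both L3 columns hold a value above 0 for all 73 members, while 1 to 11 members are at 0 in each adult column.

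The summed level of all 73 members was 2178, 2302, 2230 and 2251 CPM in adult libraries 1 to 4, against 3078 and 3055 CPM in L3 libraries 1 and 2. The libraries of a stage were close together and the stages far apart, with means of 2240 ± 51.4 CPM in adults (SD, n = 4) and 3067 ± 16.5 CPM in L3 (SD, n = 2), a ratio of 0.730. Large subunit members summed to 1399 ± 139 CPM in adults and 2380 ± 71.2 CPM in L3, a ratio of 0.588, and small subunit members to 841 ± 173 CPM in adults and 687 ± 54.7 CPM in L3, a ratio of 1.22. Here and below, subunits follow the symbols alone, so mRpS30 entered with the small subunit. The direction of the small subunit sum turned on mRpS17. Without it, small subunit members summed to 348, 553, 297 and 477 CPM in adult libraries and 584 and 666 CPM in L3 libraries, a ratio of 0.670. Without mRpS17, mRpL27 and mRpL46, the 3 most abundant members, the sum was 1345 ± 92.2 CPM in adults and 2339 ± 144 CPM in L3, a ratio of 0.575. The 22 members with counts of their own summed to 373 ± 53.4 CPM in adults and 859 ± 180 CPM in L3, a ratio of 0.434, and to 278 ± 46.2 CPM and 418 ± 31.3 CPM without mRpL27, a ratio of 0.667.

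By subunit, 9 of 46 tested large subunit members fell, or 19.6%, and 3 of 25 tested small subunit members, or 12%, where 13.1% of all tested genes were lower, so the small subunit share was near the background. The median log2 fold change was -0.84 in the large and -0.66 in the small subunit. Values were negative in 36 of 46 and 19 of 25, against 54% of all tested genes, and the difference between subunits was not tested. Without L3 library 1 the counts that fell were 3 large and 0 small subunit members, and without adult libraries 1, 3 or 4 in turn 1 small subunit member was called lower.

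**Figure D5:**
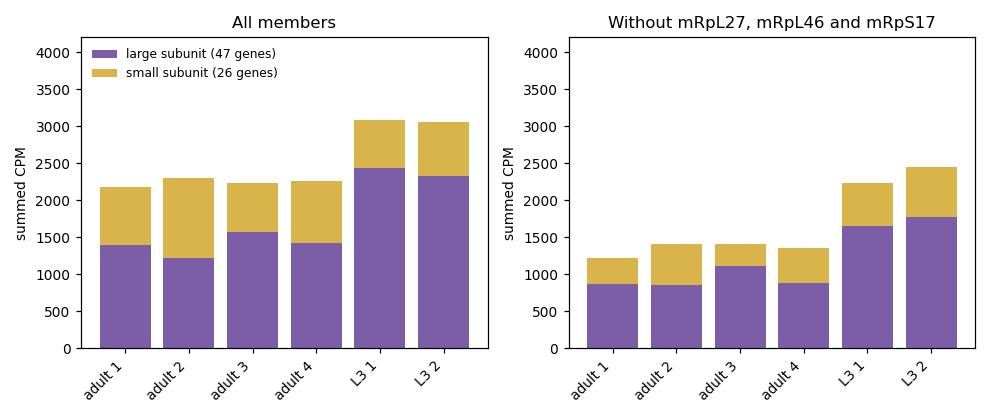
Summed CPM of large and small subunit members, stacked, in each adult and L3 library, for all 73 members (left) and without mRpL27, mRpL46 and mRpS17 (right). Both L3 bars stand above all 4 adult bars in both panels.

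Single members varied widely between adult libraries. The ratio of variance to mean, which is 1 for counting error alone, had a median of 7.68 over members in the adult libraries and 2.76 in the L3 libraries, against 8.97 and 5.16 over all tested genes. It was above 1 in adults for 69 of the 73 members. The largest value was 28.7 for mRpS16, a small subunit protein with a bacterial counterpart, which had 52.6, 102, 5.48 and 37.3 CPM in adult libraries 1 to 4 and 44.7 and 66.6 CPM in L3 libraries 1 and 2. mRpL38, of the central protuberance, had 8.35, 79.2, 69.0 and 27.95 CPM in adult libraries and 37.1 and 31.7 CPM in L3 libraries. Both L3 values lay inside the adult range for mRpS16 and for mRpL38. The SE of the log2 fold change had a median of 0.68 over tested members, 0.55 in the called and 0.73 in the others, and the called members had a median of 339 counts in all libraries, the others 160.

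The other genes of mitochondrial translation and upkeep came in short lists, whose counts of calls are set against the 13.1% of all tested genes that were lower and the 9.65% that were higher. Counts of 0 to 2 in lists this short show nothing particular to a list. Of tko and bonsai, mitochondrial ribosomal protein genes under older names, neither was called. bonsai had 11.7, 8.05, 12.1 and 10.9 CPM in adult libraries 1 to 4 and 23.5 and 23.4 CPM in L3 libraries 1 and 2, with no overlap (log2 fold change -1.15 ± 0.67 SE, edgeR adjusted p = 0.237). tko averaged 32.8 ± 27.5 CPM in adults (SD, n = 4) and 29.9 ± 9.15 CPM in L3 (SD, n = 2). Of 5 tested translation factor genes 0 were called by edgeR, 0 by DESeq2, limma-voom or the earlier method, and 0 had an unadjusted p below 0.05. Without adult library 3 edgeR called CG5705, a mitochondrial release factor gene, lower (adjusted p = 0.0409). Its log2 fold change was -5.03 in that fit and -1.14 to -1.33 without another adult library. The call thus rested on leaving out adult library 3 and adds no support. EfTuM, the mitochondrial elongation factor Tu, averaged 36.7 ± 20.3 CPM in adults and 70.8 ± 39.6 CPM in L3 (log2 fold change -0.82, edgeR adjusted p = 0.261). CG12736, a gene of the same elongation factor family, averaged 11.4 ± 4.97 CPM in adults and 8.11 ± 3.97 CPM in L3.

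Of 13 tested mitochondrial aminoacyl-tRNA synthetase genes, which charge transfer RNAs inside the organelle, 1 rose and 1 fell, with a median log2 fold change of -0.51. Aats-leu, the leucyl enzyme, had 25.0, 49.7, 7.67 and 42.7 CPM in adult libraries 1 to 4 and 7.95 and 3.64 CPM in L3 libraries 1 and 2. Its adult library 3 fell between the L3 values, and its log2 fold change was 2.28 ± 0.82 (SE; edgeR adjusted p = 0.0477). The call of Aats-leu was lost without adult library 1 (adjusted p = 0.0578), adult library 2 (0.0994), adult library 4 (0.131), L3 library 1 (0.129) or L3 library 2 (0.241). CG31739, the aspartyl enzyme, had 0, 0, 0 and 1 counts in adult libraries and 36 and 40 counts in L3 libraries (edgeR adjusted p = 0.0131). Its counts were shared with CG13282, and leaving out either L3 library ended the call, at an adjusted p of 0.0662 without the first and 0.0716 without the other. CG8257, the most abundant of the list, averaged 166 ± 19.1 CPM in adults and 228 ± 34.2 CPM in L3 (edgeR adjusted p = 0.295). Its counts were shared with a neighbour.

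Of 12 tested genes of mitochondrial DNA upkeep and transcription, 2 fell, or 16.7%, which is near the 13.1% of all tested genes, and 0 rose by edgeR. DESeq2, limma-voom and the earlier method also gave 2 lower and 0 higher, and so did an unadjusted p below 0.05. The median log2 fold change was -0.74. tam, the catalytic subunit of the mitochondrial DNA polymerase, had 14.2, 37.6, 28.5 and 24.8 CPM in adult libraries 1 to 4, against 88.2 and 93.6 CPM in L3 libraries 1 and 2. The adult libraries lay well below both L3 libraries, with a log2 fold change of -1.89 ± 0.47 (SE; edgeR adjusted p = 0.00619), and the counts were shared with Arpc1. mtDNA-helicase averaged 528 ± 190 CPM in adults and 1485 ± 241 CPM in L3, but its counts were shared with RpS2, a cytoplasmic ribosomal protein gene, and with small nucleolar RNA entries. Its log2 fold change was -1.54 ± 0.33 (SE; edgeR adjusted p = 0.00171). Without L3 library 1, neither was called, with adjusted p of 0.0799 for tam and 0.0580 for mtDNA-helicase. mtRNApol, the mitochondrial RNA polymerase, averaged 21.5 ± 14.4 CPM in adults and 10.5 ± 4.49 CPM in L3 (edgeR adjusted p = 0.457).

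Of 15 tested import and folding genes 1 rose and 1 fell. Tom70, a receptor of the outer membrane, had 1891, 2188, 986 and 2196 CPM in adult libraries 1 to 4 and 248 and 209.6 CPM in L3 libraries 1 and 2 (log2 fold change 2.94 ± 0.40 SE, edgeR adjusted p = 1.58e-05), with counts shared with CG6766, CG6785 and CG6770. Tom20, another outer membrane receptor with counts of its own, averaged 44.5 ± 14.4 CPM in adults and 107 ± 25.7 CPM in L3. It had a log2 fold change of -1.32 ± 0.43 (SE; edgeR adjusted p = 0.0286), and the call was lost without adult library 1 (adjusted p = 0.0945), adult library 4 (0.0845), L3 library 1 (0.120) or L3 library 2 (0.134). Of 5 tested regulators linked to mitochondrial gene expression, srl, the fly PGC-1 homologue, fell. srl averaged 53.3 ± 14.7 CPM in adults and 126 ± 9.12 CPM in L3 (log2 fold change -1.26 ± 0.40 SE, edgeR adjusted p = 0.0258), with counts shared with eIF3-S10. Its call was lost without adult library 1 (adjusted p = 0.0732), adult library 2 (0.0548), adult library 3 (0.0538) or L3 library 1 (0.283). Ets97D, the fly homologue of an NRF-2 subunit, averaged 38.6 ± 24.9 CPM in adults and 12.6 ± 6.51 CPM in L3 (edgeR adjusted p = 0.0941, and 0.0157 without adult library 3). Its log2 fold change was 1.71 with all libraries and 2.12 without adult library 3, so the call that drops this library adds no support. The counts of Ets97D were shared with a neighbour.

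The cytoplasmic ribosomal proteins and the respiratory chain genes, which include the partners of the proteins that mitochondrial ribosomes make, stood on either side of the members. Of 85 tested cytoplasmic ribosomal protein genes 52 fell, or 61.2%, and 1 rose, or 1.18%, against 13.1% and 9.65% of all tested genes. When each group of genes that share counts entered once, 25 of 45 fell and 0 rose, against 11.8% and 8.96% of all genes. In the fit of all 85, a negative log2 fold change was found in 81, or 95.3%, against 54% of all tested genes, and the median was -1.08. The number that fell was 32 without adult library 1, 34 without adult library 4 and 13 without L3 library 1. RpL22 was the most abundant gene of the list by the mean of both stages and the 1 that rose. Its counts were shared with a neighbour, so the rise cannot be assigned to RpL22 alone. RpL22 averaged 3445 ± 504 CPM in adults and 1572 ± 12.8 CPM in L3 (log2 fold change 1.10 ± 0.32 SE, edgeR adjusted p = 0.0172). It was not called without adult library 1 (adjusted p = 0.0510) or L3 library 2 (0.0754). RpS19b, a paralogue of RpS19a, averaged 8.30 ± 4.71 CPM in adults and 139 ± 14.8 CPM in L3 (log2 fold change -4.08 ± 0.53 SE, edgeR adjusted p = 4.57e-06), with counts shared with CG13601 and CG43999. Of 66 tested nuclear genes of the respiratory chain 2 rose and 2 fell, or 3.03% each, both under the share of all tested genes. A positive log2 fold change was found in 55 and a negative one in 16.7%, against 54% of all tested genes, and the median was 0.41. With each group of shared counts entered once, 41 of these genes were tested, of which 1 rose and 1 fell. The summed level of the respiratory chain genes was 9996 to 14030 CPM in adult libraries and 10111 and 10868 CPM in L3 libraries, so the stages overlapped. Cyt-c-p, a cytochrome c gene, averaged 534 ± 71.7 CPM in adults (SD, n = 4) and 127 ± 34.1 CPM in L3 (SD, n = 2). Its log2 fold change was 2.01 ± 0.36 (SE; edgeR adjusted p = 0.000335) with counts shared with VhaSFD, and Cyt-c-p was higher whichever library was left out. ND-51, a complex I subunit gene, also rose, with an average of 73.1 CPM in adults and 27.8 CPM in L3, but of the repeats that left out 1 library only that without adult library 3 also called it. ATPsynbetaL, related to the ATP synthase beta subunit, had no count in any adult library and 11.7 and 40.6 CPM in L3 libraries (edgeR adjusted p = 0.00499, and 0.0733 without L3 library 2). ND-MNLL averaged 1010.1 ± 339 CPM in adults and 1897 ± 512 CPM in L3 with counts shared with RpS6 and Nek2, and its call (edgeR adjusted p = 0.0418) was lost without adult library 1 (0.127), adult library 2 (0.131), adult library 4 (0.139) or L3 library 1 (0.525). The medians of these lists were not tested against each other.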

How the data were processed

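The deposited table holds whole-number counts per gene symbol for 6 libraries of a MARS-seq derivative, which reads 3′ ends, without normalization. The tools named in the submitters' processing notes are HOMER, HISAT 0.1.5 and bcl2fastq. What build, annotation, strand setting and handling of molecular identifiers the authors used is not given in the sources used here. No coordinates are printed for that reason. The floors cover counting error only, while SE values also include the spread between libraries. The 6 columns of samples all entered, and 0 columns were unused. All 73 member symbols are current in a RefSeq gene table of Release 6, which with an Ensembl BDGP6 annotation served only for names and orientation of neighbours.

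CPM was computed from the deposited counts as counts scaled to a library's total, and was not scaled by gene length. Genes were tested with edgeR 4.0.16 (glmQLFit, glmQLFTest; R 4.3.3), TMM scaling, filterByExpr by stage, stage as the only coefficient, and Benjamini-Hochberg adjustment over all 9082 tested genes at 0.05. SE is the absolute log2 fold change divided by the square root of F. No test was made over the members as a set, and sums and medians are descriptions. Alternatives were DESeq2 1.42.0, limma-voom (limma 3.58.1), other scaling, filters, thinning, sharing rules, the replicate block and leaving out each library. Named members are those called, up to 14 in each direction, and the 6 most abundant; from each pathway list, the most abundant gene and that with the smallest p in each direction. Other members named were chosen after their values were seen, for their place in the ribosome. mEFG2 and Polrmt had no match in the table. The members and lists were chosen with earlier results of these data known.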

Additional observations from a re-analysis of the deposited data

How the results depend on the processing

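Normalization by RLE or upper quartile left all 12 lower members and mRpS17 called. Of 247 repeat tests of the 13 called members under 19 alternatives, 156 kept the call, 91 lost it and 0 changed direction. mRpL27 and mRpS17 were called in every alternative fit. Over all genes, DESeq2 called 681 lower, the earlier quasi-likelihood method 521 higher and 558 lower, 1 row per group of shared counts 540 and 712, and a threshold of 0.01 512 and 648. Members lower numbered 6 with DESeq2, 7 with limma-voom, 4 with the earlier method and 6 at the threshold of 0.01, and members with counts of their own 1 with the earlier method. With limma-voom the member median was -1.21 and that of all genes -0.43. The summed ratio was 0.693 with totals that count each group of shared counts once. Leaving out 1 library at a time gave 403 to 1020 genes higher and 509 to 1189 lower, a member median of -0.76 to -0.57, 1 to 2 members higher and 3 to 9 lower, 0 to 1 higher and 1 to 3 lower among members with counts of their own, and a summed ratio of 0.724 to 0.737. The labels state no pairing by replicate number. Deviations of same-numbered libraries from their stage means correlated at 0.0104. With 2 libraries per stage this is 1 contrast, which cannot show whether the samples were paired. With the replicate block, which leaves 4 libraries, 306 genes were higher and 186 lower, and 1 member was lower, mRpL27, which has counts of its own. Chosen after seeing the data, the same 4 libraries without the block gave 7 members lower, 1 of them with counts of its own. Also chosen after seeing the data, 1 row per group with the earlier method gave 323 genes higher and 292 lower, 2 members lower and 1 with counts of its own. The cause of these shifts was not tested, and fewer libraries enter the block and leave-one-out fits. The median member had 12 to 18 counts in an adult library, and thinning to the shallowest library left 62 members tested and 8 lower.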
